A study of Mus with 16 samples.

Results

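Epiblast stem cells of the cross CastB6 were compared with those of the cross MolfB6, 4 libraries against 4, out of 16 libraries in a series of 4 crosses. The libraries were chosen by their titles, which carry the numbers 1, 3, 5 and 6 for CastB6 and 1, 2, 3 and 6 for MolfB6. Both are F1 hybrid lines of the laboratory strain C57Bl/6J with a wild-derived inbred strain, and the other 2 crosses are PwkB6 and SpretB6. The labels give no sex, passage or clone, and refer to an earlier publication for growth, treatment and extraction. All libraries are bulk RNA-seq of total RNA depleted of ribosomal RNA, made by the submitters as a counterpart to single-cell data for allele mapping. The comparison here asks which transcripts the CastB6 and MolfB6 lines held at different levels. Whether libraries of the same cross are separate cultures is not stated, so p-values reflect how these libraries vary, and that variation may be technical.

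Epiblast stem cells are derived from the post-implantation epiblast and hold the primed state of pluripotency, from which the germ layers form. An F1 hybrid cell carries a genome from each parent strain in the same nucleus, so a transcript total adds the RNA of both alleles. CastB6 and MolfB6 have the C57Bl/6J genome in common and differ in the other parent. The CAST strain stands for the subspecies castaneus. The MOLF strain stands for the Japanese mouse molossinus, which is commonly described as a natural mixture of musculus and castaneus ancestry. In bulk RNA, more cells holding a transcript and more of it per cell cannot be told apart.

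The files name transcripts by Ensembl ID, and no table used here pairs these IDs with genes. The items below are therefore transcripts, described by level, direction and length, and the cell type could not be checked against marker genes. Several transcripts of a gene, and copies of a gene elsewhere in the genome, share reads that the quantification divides among them. A difference of a transcript can be a change of the gene, of its isoforms or of how those reads were divided, and these cannot be told apart here. How reads of the wild-derived alleles were treated is not stated either. A difference between the crosses can therefore also lie in how reads were mapped, which was not tested. No sequence is shown because none of the files holds one.

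Depth and make-up of the libraries were compared first. Totals ran from 55396992 to 68801168 estimated reads in CastB6 and from 59062853 to 66568024 in MolfB6. None of 9 measures per library passed a two-sided exact permutation test between the crosses, where the smallest p that 4 against 4 libraries allow is 0.0286. These were the total, the number of transcripts with reads, the share of the 100 most abundant transcripts, the fragment length correction and the share of reads in 5 classes of transcript length (p from 0.143 to 1, all 1 after Benjamini-Hochberg adjustment over the 9). After that adjustment a measure fully apart between the crosses could not pass on its own. The test therefore does not show that the libraries were alike. Transcripts under 500 bases took 5.23% ± 0.305 of the reads in CastB6 and 5.49% ± 0.574 in MolfB6, and those of 4000 bases and over took 23.7% ± 1.32 and 24.0% ± 1.44 (SD, n = 4 each). The Spearman correlation of log2 CPM (reads scaled to library size) across transcripts was between 0.856 and 0.916 in the 12 pairs of libraries of the same cross. It was between 0.853 and 0.896 in the 16 pairs across the crosses. For all 8 libraries the closest of the other 7 belonged to the same cross.

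CastB6 and MolfB6 differed in 1564 of 56721 tested transcripts, or 2.76% (called hereafter, at a Benjamini-Hochberg adjusted p under 0.05 in the quasi-likelihood test of edgeR). Of these, 894 were higher in CastB6, or 1.58% of those tested, and 670 were lower, or 1.18%. The 4 CastB6 libraries did not overlap with the 4 MolfB6 libraries in CPM for 1547 of the calls, against 11.5% of all tested transcripts. The other 17 calls had overlapping libraries. The share of calls that were higher in CastB6 was 57.2% (95% exact binomial interval from 54.7% to 59.6%, counting error only), but 46.5% when TPM (abundance scaled to transcript length and library total) were tested on a log2(TPM + 1) scale with limma. Which direction held most calls thus differed between these tests. DESeq2 called 3817 transcripts, and the count fell to 871 when MolfB6 1 was left out. It was 926, 994 and 1006 when CastB6 5, MolfB6 6 or MolfB6 3 was left out.

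The sizes of the called differences were described over all calls of each direction. For the 894 rises the median log2 fold change came to 1.04, with quartiles at 0.63 and 2.34. For the 670 falls it came to -1.46, with quartiles at -2.98 and -0.93. Both medians were unchanged when the 50 rises and 50 falls with no read in the lower cross were set to a lower bound. Of the rises, 466 passed 2-fold (52.1%) and 253 passed 4-fold (28.3%). Of the falls, 475 passed 2-fold (70.9%) and 237 passed 4-fold (35.4%). The smallest called differences were 0.26 upward and 0.31 downward on the log2 scale. The rises were also the more abundant set. Their median was 9.37 TPM in CastB6 against 3.92 in MolfB6, while the falls had a median of 0.952 TPM in CastB6 against 3.83 in MolfB6.

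**Figure D1:**
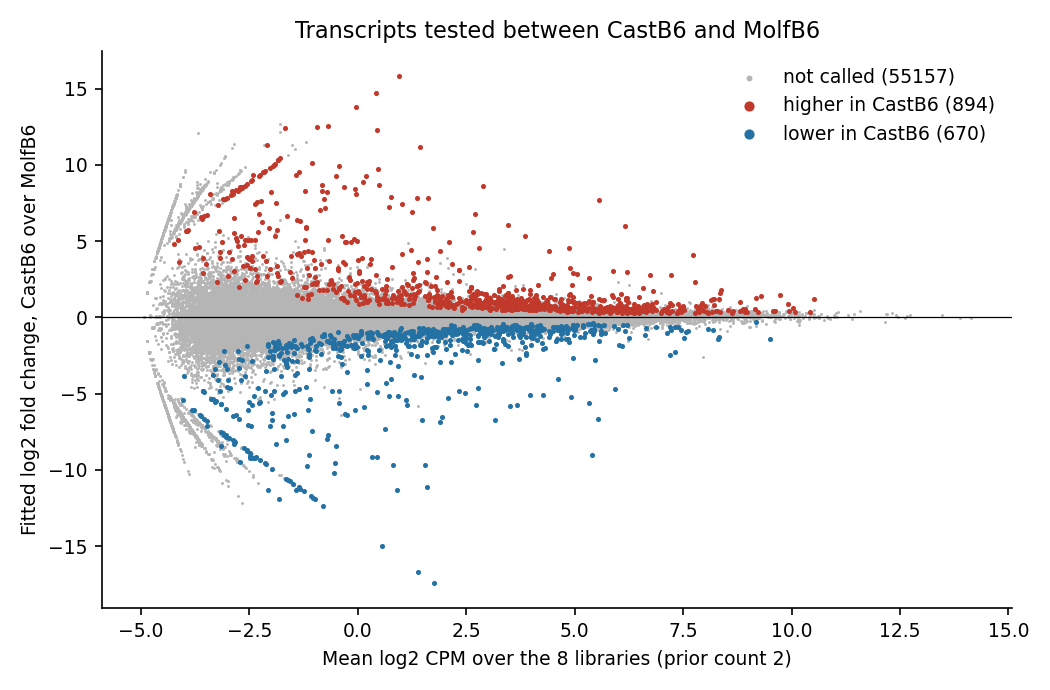
Fitted log2 fold change of CastB6 over MolfB6 (vertical axis) against mean log2 CPM over the 8 libraries (horizontal axis) for the 56721 tested transcripts, with the 894 called higher in CastB6 in red, the 670 called lower in blue and the rest in grey. Called differences narrow towards 0 as the level rises, and the slanted lines at low levels are transcripts with no read in the lower cross.

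Level was described in 4 classes of the same size, cut on mean log2 CPM over the 8 libraries. The share called rose with the level, from 1.32% in the lowest class through 1.76% and 2.76% to 5.18% in the highest. The size of a called difference fell at the same time. Its median was 5.61 on the log2 scale in the lowest class (4.93 with lower bounds for the 74 calls with no read in the lower cross), and 2.50, 1.31 and 0.75 in the next classes. All 187 calls of the lowest class passed 2-fold, against 30.3% of the 735 calls of the highest. The spread between libraries moved with the level too. The median SD of log2 CPM in CastB6 was 1.09 in the lowest class and 0.215 in the highest, and in MolfB6 it was 1.03 and 0.196 (n = 4 each). The median standard error of the fitted difference fell from 1.21 to 0.18.

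The lead of rises over falls lay in the highest class. There 503 transcripts were higher in CastB6 and 232 lower, or 68.4% higher. In the 3 classes below, from the lowest up, 48.7%, 45.6% and 47.4% of the calls were higher. The rises of the highest class had a median of 0.68 on the log2 scale, against -0.87 among the falls of that class. In the 3 classes below the rises were the larger in median, with 5.66 against -5.55 in the lowest, 3.24 against -2.06 in the next and 1.36 against -1.23 in the class under the highest. The larger median of the falls over all calls thus held in the highest class alone, where 503 of the 894 rises lay. Over all tested transcripts of the highest class, 60.2% had a fold change above 0 and the median was 0.07. Scaled on transcripts with at least 5 CPM in at least 4 libraries, 50.4% lay above 0 with a median of 0.0025, and on log2(TPM + 1) 46.3% did with a median of -0.02, so this lean depended on the scaling. In the lowest class 41.5% lay above 0, and the median was -0.21. The share of rises in the highest class was 73.4% under DESeq2 and between 63.8% and 73.0% with any 1 of the 8 libraries left out. With transcripts limited to those with at least 5 CPM in at least 4 libraries it was 55.9%, and with log2(TPM + 1) it was 50.6%.

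**Figure D2:**
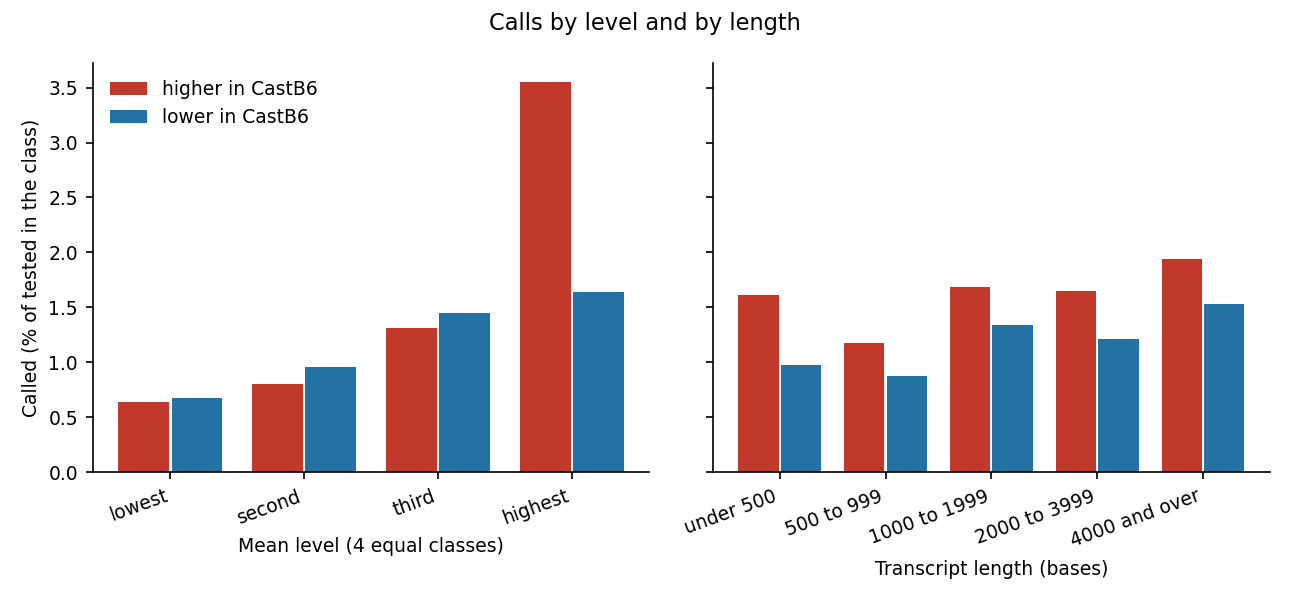
Share of tested transcripts called higher (red) or lower (blue) in CastB6 within each of 4 classes by mean level (left) and 5 classes by transcript length in bases (right). Rises stand clear of falls in the highest level class, where 503 were higher and 232 lower, and both directions vary less with length than with level.

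Pooled over all levels, called transcripts of both directions had a greater median length than tested transcripts. The median length was 2102 bases for the rises and 2192.5 bases for the falls, against 1838 bases over all tested transcripts. The 95% order-statistic intervals of the first 2 medians overlapped, from 1958 to 2273 bases and from 1914 to 2385 bases. They treat the called transcripts as separate draws and do not cover how the calls vary with the libraries. The quartiles lay at 916 and 3614 bases for the rises and at 976 and 3710 for the falls. Rises ran from 259 to 12245 bases and falls from 262 to 10926. Abundant transcripts were also the longer ones, with a median of 2688 bases in the highest level class and 989 in the lowest. Within the 3 lower level classes the rises were shorter in median than the tested transcripts, with 774 against 989 bases, 1006 against 1388 and 1450 against 2121 from the lowest up. In the highest class they were longer, with 2899 against 2688. The falls were longer than the tested transcripts in all 4 classes, with 1167, 1584, 2247 and 3030 bases. The medians over called transcripts fell to 1647 bases for the rises and 1848.5 for the falls without MolfB6 1, and to 1378 and 1676 bases with log2(TPM + 1).

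Across 5 classes of length, the share called was 2.59% under 500 bases, 2.05% from 500 to below 1000, 3.02% from there to below 2000, 2.86% from there to below 4000 and 3.47% at 4000 and over. Rises made up between 55.8% and 62.2% of the calls in each. Length went with the size of the difference. The median called difference was 3.81 on the log2 scale under 500 bases (3.72 with lower bounds), 2.12, 1.33 and 1.03 in the next classes, and 0.80 at 4000 bases and over. Calls that passed 2-fold made up 91.9% of the shortest class and 38.5% of the longest. Median levels in these classes differed as well, from -1.62 log2 CPM in the shortest to 2.02 in the longest.

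In the 3 upper level classes, the size of called differences also went down with length. In the highest class the median was 1.87 on the log2 scale for the 19 calls under 500 bases, 0.94, 0.84 and 0.70 for the next lengths, and 0.65 for the 232 calls of 4000 bases and over. In the lowest class no such order was seen, with medians of 5.61, 5.70, 5.45, 5.87 and 4.76 from the shortest to the longest. The share called in the highest class ran from 4.40% under 500 bases to 5.84% at 4000 and over. Direction and length went together below the highest class, where the rises were the shorter. In the second class, 19 of 33 calls under 500 bases were higher in CastB6, against 5 of 23 at 4000 bases and over.

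**Figure D3:**
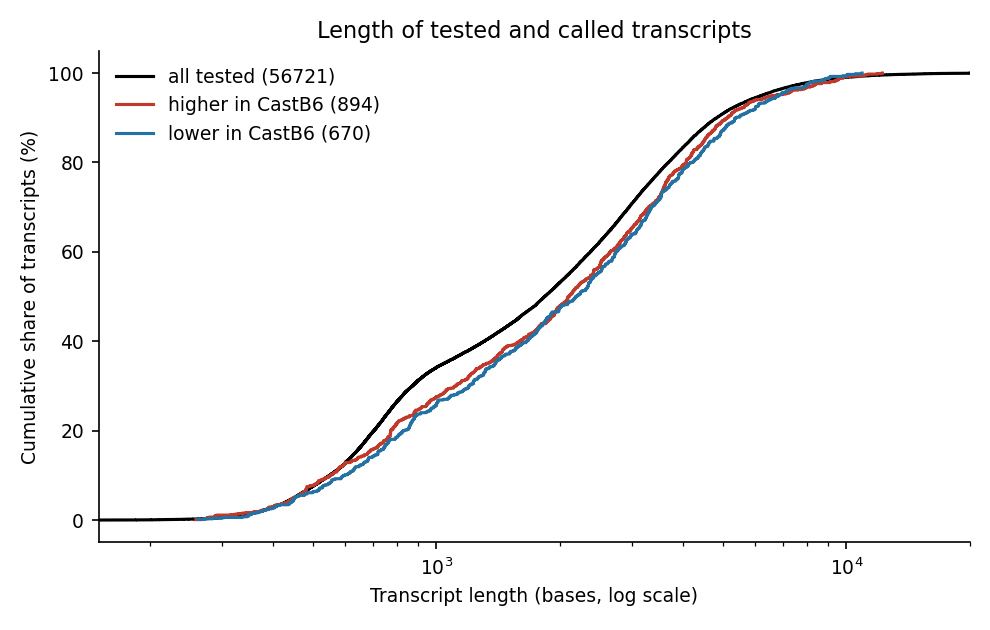
Cumulative share of transcripts (vertical axis, %) by length in bases (horizontal axis, log scale) for all 56721 tested transcripts (black), the 894 higher in CastB6 (red) and the 670 lower (blue). Both called sets lie to the right of the tested transcripts over most of the range, with medians of 2102 and 2192.5 bases against 1838.

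The largest differences among abundant transcripts were in short ones. In all, 38 calls passed 4-fold with at least 100 TPM in the higher cross, 18 higher in CastB6 and 20 lower. Their median length was 632 bases, the longest had 2421, and 31 (81.6%) were under 1000 bases. Among all 1383 tested transcripts at that level, 53.4% were under 1000 bases, and among the 105 of them that were called, 52.4%. None of the 38 had estimates that were whole numbers in all 16 libraries, so each may share reads with other transcripts. Such estimates were rare in general, in 1335 of the 56721 tested transcripts, so their absence does not set the 38 apart.

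Effective length, which corrects for fragment size, was compared between the crosses. The median of length minus effective length was 151 ± 2.98 bases in CastB6, compared with 151 ± 3.10 in MolfB6 (SD, n = 4 each). The log2 ratio of mean TPM lay below that of mean CPM by a like amount in every length class, with median differences of -0.086 under 500 bases and -0.088 at 4000 and over. Over all transcripts with reads in both crosses, the median log2 ratio was -0.12 in TPM and -0.03 in CPM.

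Among transcripts higher in CastB6, the leading one had reads in CastB6 and none in MolfB6. ENSMUST00000121821.2, of 636 bases, stood at 190, 357, 284 and 248 TPM in CastB6 1, 3, 5 and 6 and at 0 in all 4 MolfB6 libraries. With 3 reads over the 4 MolfB6 libraries as the limit for a count of 0, it was at least 10060-fold higher (edgeR adjusted p = 1.41e-06). It was at 0 in the 4 SpretB6 libraries too and at most at 0.0507 TPM in PwkB6, so more than 1 read per cross was seen in CastB6 alone. ENSMUST00000120826.2, of 1545 bases, stood at 43.4, 44.9, 41.0 and 46.2 TPM in CastB6, against 0 in MolfB6. It was at least 4662-fold higher (edgeR adjusted p = 6.90e-08), with 93.0 ± 6.67 TPM in SpretB6 (SD, n = 4). These bounds cover counting error only, not how reads were mapped or divided.

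Another 2 had no reads in MolfB6 but reads in each of the other crosses. ENSMUST00000109467.4, of 904 bases, stood at 43.8, 34.6, 38.9 and 57.2 TPM in CastB6 and was at least 2483-fold higher than in MolfB6 (edgeR adjusted p = 8.64e-10). ENSMUST00000123179.2, of 764 bases, stood at 22.9, 19.9, 23.8 and 19.8 TPM and was at least 1017-fold higher (edgeR adjusted p = 1.18e-07). For both, PwkB6 and SpretB6 means lay between 24.0 and 37.4 TPM, against 43.6 and 21.6 in CastB6. MolfB6 was the cross without them.

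ENSMUST00000189941.2, of 678 bases, was uneven within CastB6. It stood at 64.6 TPM in CastB6 1 and at 9.36, 13.0 and 12.5 in CastB6 3, 5 and 6, and had 0 reads in the 12 libraries of the other crosses. It was at least 992-fold higher than in MolfB6 (edgeR adjusted p = 0.0178). The adjusted p was 0.0576 without CastB6 5 and 0.0909 under limma voom. ENSMUST00000121788.2, of 438 bases, stood at 118, 236, 218 and 167 TPM in CastB6, and 2 reads were found over the 4 MolfB6 libraries. Its ratio in CPM was 6152 with a 95% Poisson interval from 1703 to 50800 (edgeR adjusted p = 2.90e-09). SpretB6 held 277 ± 29.7 TPM (SD, n = 4), and PwkB6 at most 0.164.

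Among transcripts lower in CastB6, the leading ones were abundant in MolfB6 and had no read in CastB6. ENSMUST00000118499.2, of 750 bases, was at 0 in all 4 CastB6 libraries and at 596, 728, 721 and 704 TPM in MolfB6 1, 2, 3 and 6. It was at least 27920-fold lower in CastB6 (edgeR adjusted p = 2.80e-08). It had 0 reads in SpretB6 too and 614 ± 183 TPM in PwkB6 (SD, n = 4). ENSMUST00000212102.2, of 351 bases, was at 0 in CastB6 and at 1314, 1142, 966 and 1575 TPM in MolfB6, at least 17080-fold lower (edgeR adjusted p = 5.63e-08). ENSMUST00000081204.6, of 1891 bases, was at 0 in CastB6 and at 47.2, 42.4, 50.2 and 42.1 TPM in MolfB6, at least 5316-fold lower (edgeR adjusted p = 3.31e-09). The last 2 had reads in every PwkB6 and SpretB6 library, so CastB6 was the cross without them.

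ENSMUST00000117103.2, of 635 bases, and ENSMUST00000112182.3, of 633, showed the same pattern at lower levels. The first was at 19.3, 18.8, 20.8 and 17.0 TPM in MolfB6 and the second at 19.6, 18.1, 16.7 and 17.5, with 0 in CastB6. They were at least 619-fold and at least 586-fold lower (edgeR adjusted p = 1.02e-09 and 6.12e-10). Their means in PwkB6 and SpretB6 were between 16.9 and 33.5 TPM. ENSMUST00000187296.2, of 4037 bases, was at 3.84, 3.21, 1.48 and 4.64 TPM in MolfB6 and at 0 in CastB6 (edgeR adjusted p = 0.0379). Its call was lost without any 1 of the 8 libraries, with adjusted p from 0.0708 to 0.0919, and under limma voom (0.712).

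**Figure D4:**
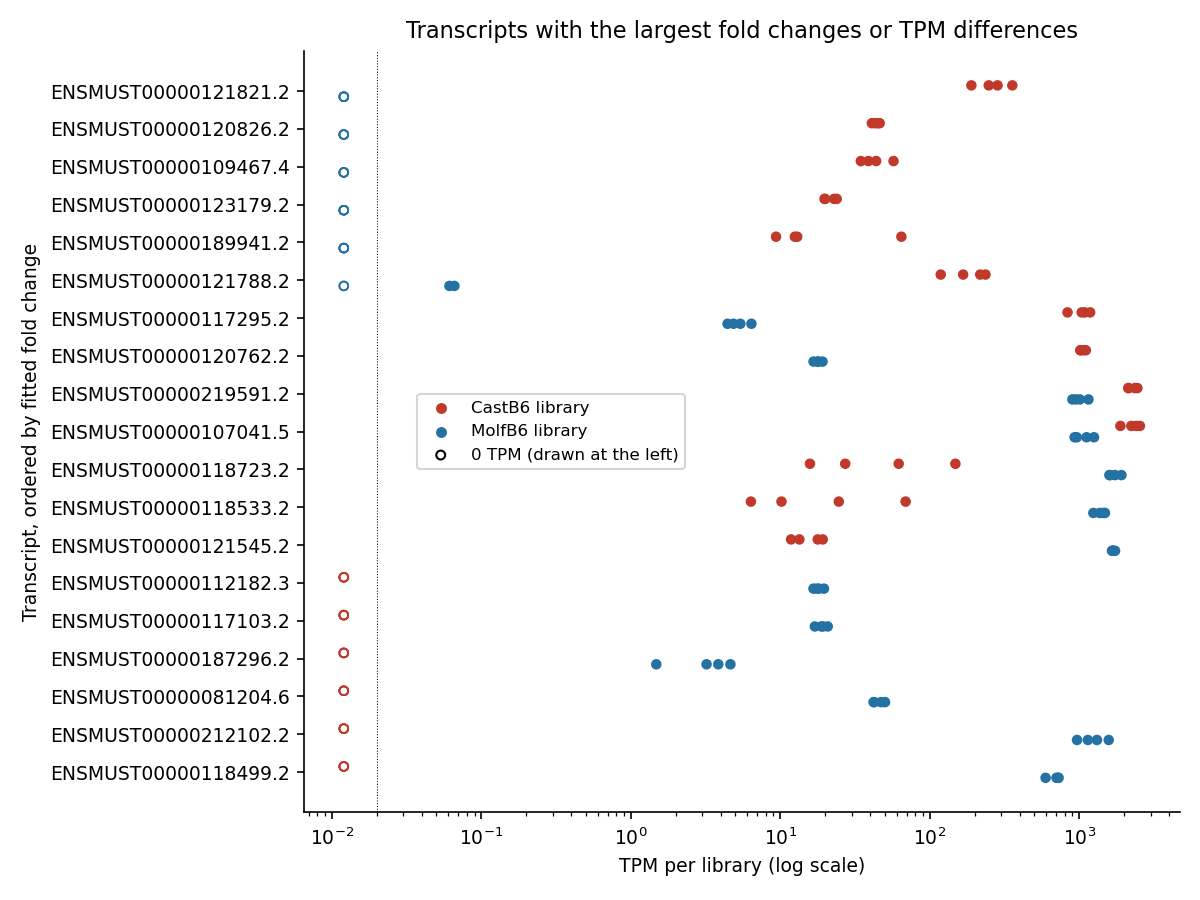
TPM in each CastB6 (red) and MolfB6 (blue) library on a log scale for the transcripts with the largest fold changes or TPM differences, ordered by fitted fold change, with open circles at the left for 0 TPM. For every transcript shown the 4 libraries of one cross lie apart from the 4 of the other, which follows from naming only transcripts whose CPM did not overlap. ENSMUST00000118723.2 and ENSMUST00000118533.2 are spread widely within CastB6.

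The largest gains in TPM were not the largest folds. ENSMUST00000219591.2, of 596 bases, stood at 2450, 2131, 2133 and 2357 TPM in CastB6, against 949, 1010, 900 and 1153 in MolfB6. The fitted log2 difference was 1.25 with SE 0.18 (adjusted p = 0.000875 by edgeR). ENSMUST00000107041.5, of 1232 bases, stood at 1885, 2548, 2230 and 2401 TPM in CastB6, against 1119, 931, 1256 and 963 in MolfB6, a fitted log2 difference of 1.18 with SE 0.14 (adjusted p = 0.000143 by edgeR). The first was near its MolfB6 level in PwkB6 (910 ± 150) and SpretB6 (994 ± 77.4; SD, n = 4 each). In both transcripts all CastB6 libraries lay above all MolfB6 libraries, which the naming rule required of their CPM.

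The next 2 gains were at or under 19.2 TPM in MolfB6. ENSMUST00000120762.2, of 750 bases, stood at 1017, 1022, 1107 and 1071 TPM in CastB6, against 17.8, 16.7, 17.9 and 19.2 in MolfB6, a fitted log2 difference of 5.97 with SE 0.14 (adjusted p = 1.29e-11 by edgeR). ENSMUST00000117295.2, of 882 bases, stood at 835, 1183, 1090 and 1038 TPM in CastB6, against 4.87, 4.43, 6.41 and 5.40 in MolfB6, a fitted log2 difference of 7.72 with SE 0.32 (adjusted p = 2.19e-09 by edgeR). For this transcript PwkB6 stood with CastB6 (1101 ± 143 TPM) and SpretB6 with MolfB6 (5.15 ± 2.77; SD, n = 4 each).

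The largest losses in TPM were in transcripts of 351 to 483 bases, ENSMUST00000212102.2 among them. ENSMUST00000121545.2, of 483 bases, stood at 13.4, 11.8, 19.2 and 17.8 TPM in CastB6, against 1679, 1737, 1685 and 1656 in MolfB6, a fitted log2 difference of -6.68 with SE 0.22 (adjusted p = 2.24e-10 by edgeR). ENSMUST00000118723.2, of 402 bases, stood at 148, 15.8, 27.2 and 61.9 TPM in CastB6, against 1733, 1591, 1610 and 1917 in MolfB6, a fitted log2 difference of -4.70 with SE 0.54 (adjusted p = 0.000115 by edgeR). ENSMUST00000118533.2, of 438 bases, stood at 68.9, 6.36, 10.2 and 24.6 TPM in CastB6, against 1372, 1486, 1444 and 1243 in MolfB6, a fitted log2 difference of -5.60 with SE 0.61 (adjusted p = 7.42e-05 by edgeR). The last 2 were highest in CastB6 1 and lowest in CastB6 3, and both crosses were still far apart. DESeq2 gave ENSMUST00000118533.2 no adjusted p.

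The 3 longest called in each direction, among those with at least 1 TPM in the higher cross, differed by at most 3.28-fold in CPM. ENSMUST00000089302.11, of 11887 bases, stood at 52.4 ± 6.65 TPM in CastB6, compared with 43.9 ± 4.45 in MolfB6 (SD, n = 4 each), with overlapping TPM but CPM apart, and a fitted log2 difference of 0.34 with SE 0.080 (adjusted p = 0.0370 by edgeR). ENSMUST00000159569.9, of 11276 bases, stood at 8.64 ± 0.907 and 6.91 ± 0.754 TPM (SD, n = 4 each), a fitted log2 difference of 0.41 with SE 0.087 (adjusted p = 0.0187 by edgeR). ENSMUST00000172356.8, of 10998 bases, stood at 1.34 ± 0.438 and 0.427 ± 0.186 TPM (SD, n = 4 each), a fitted log2 difference of 1.74 with SE 0.34 (adjusted p = 0.0111 by edgeR). The first call was lost without any 1 library other than CastB6 3, with adjusted p from 0.0576 to 0.124. It was also lost in an edgeR fit of only the 8 CastB6 and MolfB6 libraries (adjusted p = 0.0506). The call of ENSMUST00000159569.9 was lost without CastB6 5 (0.0662), CastB6 6 (0.0513), MolfB6 1 (0.0562) or MolfB6 3 (0.0696).

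Downward, the longest was ENSMUST00000028740.11, of 10926 bases, at 1.58 ± 0.628 TPM in CastB6, compared with 4.51 ± 0.919 in MolfB6 (SD, n = 4 each), a fitted log2 difference of -1.43 with SE 0.29 (adjusted p = 0.0135 by edgeR). ENSMUST00000078308.13, of 10047 bases, stood at 2.83 ± 0.771 and 5.04 ± 1.31 TPM, and ENSMUST00000128119.2, of 10040 bases, at 1.10 ± 0.253 and 2.48 ± 0.563 (SD, n = 4 each). Their log2 fold changes were -0.74 ± 0.16 and -1.09 ± 0.26 (SE; edgeR adjusted p = 0.0216 and 0.0369). ENSMUST00000078308.13 lost its call without CastB6 3 (0.0796), CastB6 5 (0.0905), MolfB6 1 (0.0638), MolfB6 3 (0.0766) or MolfB6 6 (0.0744). An edgeR fit of only the 8 CastB6 and MolfB6 libraries did not call it either (adjusted p = 0.0780). Its TPM overlapped, from 2.11 to 3.62 in CastB6 and from 3.26 to 6.40 in MolfB6, but its CPM lay apart. ENSMUST00000128119.2 lost its call without CastB6 1 (0.101), CastB6 5 (0.115), CastB6 6 (0.0913), MolfB6 1 (0.0610), MolfB6 2 (0.0952) or MolfB6 3 (0.115).

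A transcript that shares no reads with another should have whole numbers as estimates. This held, within 0.001, in all 16 libraries for 1335 tested transcripts, of which 46 were called (3.45%), against 2.74% of the others. A transcript with few reads has fewer chances of a fraction, so the shares are not directly comparable. The most abundant of the 6 named among them was ENSMUST00000071985.6, of 4908 bases, at 0.184, 0.261, 0.226 and 0.168 TPM in CastB6 and 16.5, 10.1, 7.94 and 14.8 in MolfB6. The fitted log2 difference was -5.77 with SE 0.54 (adjusted p = 1.48e-05 by edgeR). PwkB6 (0.286 ± 0.0817) and SpretB6 (0.0917 ± 0.0800; SD, n = 4 each) stood near CastB6, so the high level was seen in MolfB6 only among the 4 crosses.

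ENSMUST00000139762.2, of 917 bases, stood at 5.60, 2.48, 3.61 and 5.07 TPM in MolfB6, with 2 reads in CastB6 6 and 0 in the other 3 CastB6 libraries and in PwkB6 and SpretB6. Its ratio in CPM was 319 (95% Poisson interval from 88.4 to 2637; edgeR adjusted p = 0.00407). ENSMUST00000072391.2, of 390 bases, stood at 3.06, 6.59, 4.06 and 3.79 TPM in MolfB6 and at 0 to 0.150 in CastB6, from 4 reads in all (log2 fold change -5.61 ± 0.92, SE; edgeR adjusted p = 0.00327). Both fell in CastB6 from a level of a few TPM.

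The 3 named rises with whole estimates stayed under 4 TPM in every library. ENSMUST00000239103.2, of 437 bases, stood at 0.691, 3.13, 3.91 and 1.66 TPM in CastB6, with 0 reads in the 12 other libraries. It was at least 52.9-fold higher than in MolfB6 (edgeR adjusted p = 0.0380), a call lost without any 1 of the 8 libraries (0.0520 to 0.131). ENSMUST00000031690.6, of 3452 bases, stood at 0.651, 0.882, 0.366 and 0.496 TPM in CastB6, with 1 read over MolfB6. Its ratio in CPM was 451 (95% Poisson interval from 81.0 to 17820; edgeR adjusted p = 0.00144). ENSMUST00000093029.9, of 2377 bases, stood at 0.851, 0.923, 0.804 and 1.03 TPM in CastB6, with 2 reads over MolfB6, a ratio of 229 (95% Poisson interval from 63.3 to 1889; edgeR adjusted p = 0.000110).

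The values nearest to the threshold were as follows. The last called were ENSMUST00000040077.8, at 45.1 ± 4.63 TPM in CastB6 and 27.6 ± 3.84 in MolfB6, and ENSMUST00000049400.15, at 3.70 ± 0.396 and 2.85 ± 0.263 (SD, n = 4 each). The first not called were ENSMUST00000111548.8, at 3.40 ± 0.562 and 5.48 ± 0.801 TPM, and ENSMUST00000125510.3, at 1.83 ± 0.303 and 1.13 ± 0.246 (SD, n = 4 each). These 4 values are given as a description of the threshold.

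All-or-none differences were counted with presence set at 10 reads or more in each of the 4 libraries and absence at 3 or fewer in each. By these limits 90 transcripts were present in CastB6 but absent from MolfB6, and 100 showed the opposite. Of these, 73 and 71 were called, and 51 and 58 had no read at all in the absent cross. Over all tested transcripts 2.76% were called. The limits use the same reads as the test, so a high share of calls follows from the choice. Reads of the all-or-none transcripts were few, with medians of 55.6 and 52.8 per library where present, and 15 and 10 of them passed 10 TPM. Transcripts present in CastB6 were shorter, with a median of 772.5 bases and 63.3% under 1000. Those present in MolfB6 had a median of 1261 bases and 45.0% under 1000. Of all listed transcripts, from which both sets were drawn, 48.7% were under 1000 bases, and of all tested transcripts 34.1%. The share in the MolfB6 set was thus below that of the listed transcripts and above that of the tested. Whole estimates in all libraries were found for 5 and 3 of them.

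PwkB6 lay nearer to MolfB6 than to CastB6 for most calls, and SpretB6 was more evenly placed. For the 90 transcripts present in CastB6, PwkB6 had 16 present and 42 absent, and SpretB6 had 29 present and 32 absent, by the same limits. For the 100 present in MolfB6, PwkB6 had 42 present and 12 absent, and SpretB6 had 38 and 20. Over all 1564 calls, the PwkB6 mean of log2 CPM lay nearer to MolfB6 in 1071 (68.5%) and nearer to CastB6 in 493. The SpretB6 mean lay nearer to MolfB6 in 829 (53.0%) and nearer to CastB6 in 735. Over all tested transcripts these shares nearer to MolfB6 were 58.8% for PwkB6 and 52.4% for SpretB6. Among the 490 calls over 4-fold, PwkB6 was nearer to MolfB6 in 354 (72.2%), while SpretB6 was nearer to CastB6 in 249 and to MolfB6 in 241 (49.2%). Both lay nearer to MolfB6 in 659 calls and nearer to CastB6 in 323. These counts describe the called transcripts, and no test of them was run.

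The called transcripts were a small part of the RNA by TPM. The 894 rises summed to 39060 ± 1479 TPM in CastB6, or 3.91% of the total, and to 18560 ± 1150 in MolfB6, or 1.86%. The 670 falls summed to 5262 ± 363 TPM in CastB6, compared with 24520 ± 669 in MolfB6 (SD, n = 4 each). These gaps follow from the choice of the transcripts. In PwkB6 and SpretB6, which did not define the direction, the rises summed to 25430 ± 2616 and 29170 ± 1385 TPM and the falls to 19360 ± 756 and 19060 ± 407 (SD, n = 4 each). Both sums lay between those of CastB6 and MolfB6 in all 8 of these libraries. Choosing transcripts by the gap between CastB6 and MolfB6 also favours such a place, so nothing is concluded from it.

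**Figure D5:**
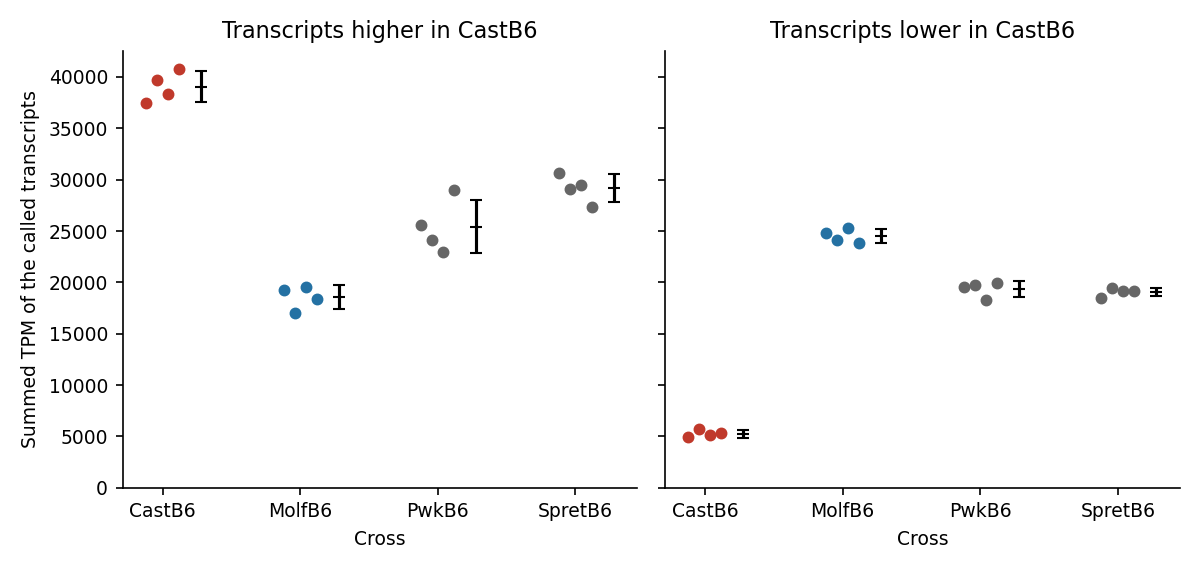
Summed TPM of the 894 transcripts called higher in CastB6 (left) and the 670 called lower (right) in each of the 16 libraries, with the mean and SD of each cross as bars (n = 4). The distance between CastB6 and MolfB6 follows from the choice of transcripts. The PwkB6 and SpretB6 libraries lie between them in both panels, a place that this choice also favours.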

How the data were processed

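Each library has 1 deposited table with length, effective length, TPM and estimated counts per transcript, per the file headers. The deposited estimated counts need not be whole, and the deposited TPM are scaled to length and to the same total in every library by the authors' quantification. Salmon, DESeq2 and the build mm10 are listed, per the submitters' processing notes. What the sources used here leave unstated are versions, the transcript set, strand and bias settings and how wild-derived alleles were treated.

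Tables were matched by transcript name (116747 listed), and 0 names could be paired with genes. Counts were rounded. Transcripts were kept by filterByExpr (minimum count 10, minimum total 15), which left 56721, scaled by TMM and fitted with edgeR 4.0.16 (quasi-likelihood, R 4.3.3) over all 16 libraries, with CastB6 against MolfB6 as the contrast and Benjamini-Hochberg adjustment over all tested. Alternatives used DESeq2 1.42.0, limma 3.58.1, other filters and left-out libraries. The edgeR script was tested on simulated data. Level classes used log2 CPM with a prior count of 2.

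Transcripts were named by rule: among called transcripts, the 6 largest folds and 4 largest TPM differences in each direction with CPM not overlapping and at least 1 TPM in the higher cross, the 3 longest at that level, the 3 largest folds with whole estimates, and the 2 on either side of the threshold. Samples, transcripts and rules were chosen with earlier results of these data known. Library pairs of a cross differed by more than sampling noise (chi-square per degree of freedom from 26.9 to 98.8), so all were kept as separate libraries. Bounds and intervals cover counting error only. The planned sums per gene and marker lists were not run.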

Additional observations from a re-analysis of the deposited data

Results flagged for a closer look

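A library far from the other 3 of its cross was looked for in 76 groups of 4, over the library measures and the TPM of the named transcripts, and 3 were found. A rate of 1 in 20 would give 3.8. ENSMUST00000189941.2 stood at 64.6 TPM in CastB6 1 and between 9.36 and 13.0 in the other 3 CastB6 libraries. ENSMUST00000139762.2 stood at 0.0497 TPM in CastB6 6, from 2 reads, and at 0 in the others. ENSMUST00000031690.6 stood at 0.00529 TPM in MolfB6 2, from 1 read, and at 0 in the other 3 MolfB6 libraries. Where 3 libraries are at 0, any read in the other one meets the limit.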

How the results depend on the processing

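Over 16 other settings the 35 named transcripts had 553 values, of which 465 kept their direction and their side of the threshold, 81 lost the call, 7 gained it and 0 reversed. A further 7 had no value because the filter or DESeq2 gave none. The count of 1564 calls was 3817 with DESeq2 and 46 among transcripts with whole estimates. It was between 871 (without MolfB6 1) and 1392 (without MolfB6 2) with 1 library left out. DESeq2 kept 1557 of the 1564 calls in the same direction, which made up 40.8% of its own calls. Other settings kept fewer. A fit of only the 8 CastB6 and MolfB6 libraries called 1480 and kept 71.9% of the 1564. The log2(TPM + 1) test kept 70.8% and the filter of at least 5 CPM in at least 4 libraries 59.7%. With 1 library left out, between 54.7% (without MolfB6 1) and 75.6% (without MolfB6 2) were kept. The share of calls higher in CastB6 was 59.9% with DESeq2 size factors, 53.0% with at least 5 CPM in at least 4 libraries and 46.5% with limma on log2(TPM + 1), and between 53.9% and 59.6% with 1 library left out. In the highest level class it was 73.4% with DESeq2, 55.9% with the 5 CPM filter, 50.6% with log2(TPM + 1), and between 63.8% and 73.0% with 1 library left out. The log2(TPM + 1) test was planned for the count of calls (1806). Its use for shares, lengths and named transcripts, and all class values under other settings, were added after the data were seen. The median length of rises was 2320 bases with the 5 CPM filter, 1378 with log2(TPM + 1) and between 1647 and 2005 with 1 library left out. That of falls was 1904 bases with no filter, 2695 with the 5 CPM filter, 1676 with log2(TPM + 1) and between 1847 and 2226.5 with 1 library left out. The cause of these shifts was not tested, except that fewer transcripts were tested under the 5 CPM filter (18781) and among whole estimates.

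With the replicate block, the count was 797, of which 745 were shared with the 1564 in the same direction, and the median lengths were 1902 bases for rises and 1837 for falls. The deviations of same-numbered libraries correlated at 0.0106 to 0.0815 over 3 pairs, within the range of the other pairs (-0.177 to 0.180), and not every library correlated best with its own number, so the numbers were not taken as a pairing.

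Of the 9 library measures, CastB6 minus MolfB6, 6 changed sign in at least 1 setting with a library left out, and none had passed the test. These ranged from -1710000 to 2758000 for the total, from -0.257 to 0.597 percentage points for the 100 most abundant transcripts, and from -0.910 to 1.70 bases for length minus effective length. For the share of reads they ranged from -0.394 to 0.0258 points under 500 bases, from -0.316 to 0.278 from 500 to below 1000, and from -0.999 to 0.116 at 4000 and over. The other 3 kept their sign, from -2271 to -1225 for transcripts with reads, and from 0.0123 to 0.492 and 0.214 to 0.602 points for the shares from 1000 to below 2000 and from there to below 4000 bases. Sums per gene were not run, since 0 transcript names could be paired with genes. Counts limit the weakest transcripts, where no read in 4 libraries allows up to 3 in all.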

Other observations

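Abundant calls in opposite directions included transcripts of exactly the same length. This was noticed in the values and not tested. Of the 38 calls over 4-fold with at least 100 TPM in the higher cross, 8 shared their length with a call of the other direction, at 4 lengths. The share of such matches over other transcripts was not counted, so these 8 cannot be called many or few. At 750 bases, ENSMUST00000120762.2 was high in CastB6 (1054 TPM) and SpretB6 (415), while ENSMUST00000118499.2 was high in MolfB6 (687) and PwkB6 (614) and at 0 in CastB6 and SpretB6. Their sum was 1054 ± 42.9 TPM in CastB6, compared with 705 ± 61.5 in MolfB6 (SD, n = 4 each). At 515 bases, ENSMUST00000234633.2 held 270 ± 43.1 TPM in CastB6 against 40.9 ± 2.13 in MolfB6, and ENSMUST00000077420.5 at 1.17 ± 0.264 and 117 ± 15.3 (SD, n = 4 each). Their sum was lowest in MolfB6 (158 ± 17.3 TPM), against 271 ± 43.2 for CastB6, 257 ± 41.5 for PwkB6 and 262 ± 25.3 for SpretB6 (SD, n = 4 each). At 483 bases, ENSMUST00000089785.5 held 943 ± 116 TPM in CastB6 against 40.7 ± 34.6 in MolfB6, and its counterpart was ENSMUST00000121545.2 with 15.6 ± 3.52 and 1689 ± 34.4 (SD, n = 4 each). At 438 bases the pair was ENSMUST00000121788.2 and ENSMUST00000118533.2, whose sum was 212 ± 27.0 TPM in CastB6, compared with 1386 ± 107 in MolfB6 (SD, n = 4 each). In PwkB6 this sum was 56.6 ± 11.6 TPM and in SpretB6 1964 ± 166.5 (SD, n = 4 each). At each of the 4 lengths the sum differed less in fold between CastB6 and MolfB6 than either member did. Members of opposite direction favour this. The sums were still not alike in all 4 crosses, and an exchange of reads within a pair was not tested. The transcripts ENSMUST00000234633.2, ENSMUST00000077420.5 and ENSMUST00000089785.5 were chosen after their values were seen. Whether the members of a pair share reads could not be seen from the files.

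In CastB6, ENSMUST00000118533.2 was highest in CastB6 1 (68.9 TPM) and CastB6 6 (24.6), while its partner in length ENSMUST00000121788.2 was lowest there (118 and 167 TPM). In CastB6 3 and 5 the first stood at 6.36 and 10.2 TPM and the second at 236 and 218. Transcripts of other lengths had such orders too. ENSMUST00000118723.2, of 402 bases, was also highest in CastB6 1 (148 TPM) and CastB6 6 (61.9). ENSMUST00000121821.2, of 636 bases, was also lowest there (190 and 248 TPM). The share of transcripts with such an order was not counted, and the pattern was not tested.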
